A study of Mus musculus with 2 samples.

Results

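Astrocytes with little Gfap were examined in the cerebral cortex of mice by scRNA-seq, with 1 library from control cortex and 1 from cortex after white matter injury (WMI). They were chosen by UMI counts (unique molecular identifiers, tags that count each RNA molecule once). A barcode was included when at least 4 of the 8 genes Acsbg1, Atp13a4, Nwd1, Daam2, Prdm16, Slc39a12, Gja1 and Aqp4 had a UMI, when Gfap had at most 1 UMI and when Slc17a7, Gad1 and Gad2 together had at most 2. Of 17653 barcodes kept, 628 met this rule. They were 386 of 9540 control barcodes (4.05%, exact 95% Clopper-Pearson interval 3.66 to 4.46) and 242 of 8113 WMI barcodes (2.98%, 2.62 to 3.38). Because the rule reads UMIs of these 12 genes, the levels of the 12 genes are given only as a description.

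The study asked how neurons and oligodendrocyte precursor cells (OPCs) signal to each other after WMI, with endothelin and its receptor Ednrb in view. According to the labels, both libraries came from C57BL/6 mice 2 weeks old, whose cortex was taken on postnatal day 14. For WMI the right common carotid artery was closed on postnatal day 7 with 1 h of hypoxia, a treatment text that stands on both libraries, and the labels place the control cortex on the same side. The labels speak of nuclei, whereas the published methods speak of dissociated cells, an earlier age at surgery and a longer hypoxia. They also speak of several replicates in each group and of cortex from a control side and a WMI side. Each condition had 1 library here, whose number of mice the labels do not give, and no difference below has a replicate check.

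Astrocytes take up glutamate and GABA from around synapses, buffer potassium and water, supply lipids and stored glucose to neurons, and are joined to each other by gap junctions. Gfap encodes an intermediate filament that is abundant in astrocytes of white matter and of the cortical surface and that accumulates in astrocytes after injury. Most astrocytes of the cortical grey matter hold little of it, although they express the same transporters and channels.

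The median astrocyte with little Gfap had 5132.5 UMIs in the control and 4944 UMIs in the WMI library, and 2399.5 and 2451 genes. Summed over all of them, the control held 2196424 UMIs and the WMI library 1385140. Levels are given as UMIs per 1000000 of these sums (CPM), with exact Poisson intervals, and ratios as the log2 of WMI over control, with exact conditional binomial intervals. All intervals are at 95% and cover counting error only, since cells of 1 library are not replicates of a condition. The libraries shared 36 barcodes, of which 0 belonged to an astrocyte with little Gfap in either library.

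The WMI library differed from the control in ways that went across cell types. A UMI of Xist, the RNA that silences an X chromosome in female cells, was found in 2 of 386 control astrocytes with little Gfap and in 167 of 242 WMI ones (69.0%). A UMI of Ddx3y, Uty, Kdm5d or Eif2s3y, genes of the Y chromosome, was found in 335 (86.8%) and 141 (58.3%). In the WMI library 84 of these astrocytes held UMIs of both kinds. The median share of mitochondrial UMIs was 0.0868% in control and 0.271% in WMI astrocytes with little Gfap. For many of the ratios below, the value in excitatory neurons of the same libraries (barcodes with at least 3 UMIs of Slc17a7 and at most 2 of the 8 astrocyte genes) is given as well, and the part that these differences between the libraries played was not tested.

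The share of barcodes was 1.06 points lower in the WMI library (interval of the difference -1.61 to -0.51 points). Under 4 of 11 alternatives the difference lay between -0.49 and -0.25 points, with intervals that included 0. Astrocytes by the 8 genes whatever their Gfap, with the same neuronal limit, numbered 415 in the control (4.35%, 3.95 to 4.78) and 466 in the WMI library (5.74%, 5.25 to 6.27). The Gfap limit kept 93.01% of them in the control and 51.9% in the WMI library, so that 29 control and 224 WMI astrocytes had 2 or more Gfap UMIs. The WMI denominator held 2170 microglia against 385 in the control, so that a share of all barcodes depends on these cells too. They were chosen by at least 4 of 8 microglial markers, which 2.13% of control and 23.8% of WMI excitatory neurons also held. The groups of microglia and excitatory neurons thus overlap, and values given for microglia include such barcodes.

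Just outside and just inside the limit on marker genes, 97 control and 94 WMI barcodes had 3 of the 8 genes, and 88 and 65 had 4. A list of 25 further astrocyte genes stood at 8643 and 9910 CPM in the barcodes with 3 genes and at 19424 and 15896 CPM in those with 4. At the Gfap limit, 54 control and 89 WMI astrocytes had 1 Gfap UMI and were included, and 13 and 43 had 2 and were not. The neuronal limit alone left out 67 control and 25 WMI barcodes, whose astrocyte list stood at 10790 and 7620 CPM and whose median depths were 8157 and 12357 UMIs.

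The label was checked against the list of 25 astrocyte genes, which the rule did not read. It stood at 23227 CPM in control and 20877 CPM in WMI astrocytes with little Gfap, at 1899 and 2045 CPM in excitatory neurons and at 2052 and 3295 CPM in microglia. All 386 and all 242 barcodes held UMIs of at least 4 of the 25 genes. So did 91.5% and 96.1% of excitatory neurons and 73.2% and 84.3% of microglia, so that this count hardly separates the cell types. After every barcode was thinned to 1000 UMIs, Slc1a2, the main glutamate transporter of the forebrain, was found in 99.7% of the control and 99.2% of the WMI astrocytes, against 45.1% and 37.0% of excitatory neurons. Slc1a3, a second glutamate transporter that neurons hardly express, was found in 83.2% and 83.5% of the astrocytes and in 4.94% and 5.15% of the neurons.

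UMIs of other cell types were present as well. A list of 8 genes of excitatory neurons stood at 2544 CPM in control and 1884 CPM in WMI astrocytes with little Gfap, with 4 or more of its genes in 184 and 82 of them. Microglia held the same list at 4447 and 4534 CPM. The gene of that list with the most UMIs in the astrocytes was Syt1, at 1697 and 1186 CPM. The list of 8 microglial genes stood at 141 CPM in the control and 473 CPM in the WMI library, with 4 or more of its genes in 7 and 30 astrocytes, against 1966 and 1425 CPM in microglia. A list of genes of activated myeloid cells stood at 133 and 809 CPM, with 4 or more in 0 and 53 astrocytes, and excitatory neurons held it at 84.3 and 437 CPM. By their UMIs in the astrocytes, Csf1r led the microglial list and Ctsd the myeloid one. Lists of 8 genes each stood at 319.6 and 288.8 CPM for oligodendrocytes, at 71.0 and 137.2 CPM for OPCs, led by Gpr17, and at 151.6 and 149.4 CPM for neuroblasts, led by Dcx. The list of inhibitory neurons stood at 99.3 and 85.2 CPM, led by Sst, that of vessels at 50.1 and 53.4 CPM, led by Pdgfrb, that of fibroblasts at 36.0 and 36.8 CPM, led by Ptgds, and that of ependymal cells at 12.7 and 21.7 CPM, led by Cfap44. Within these lists, Pvalb of interneurons, Ermn of oligodendrocytes, Ly6c1 and Kcnj8 of vessels, Lum and Slc6a13 of fibroblasts, and Ccdc153 and Tmem212 of ependymal cells had 0 UMIs in both libraries.

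**Figure D1:**
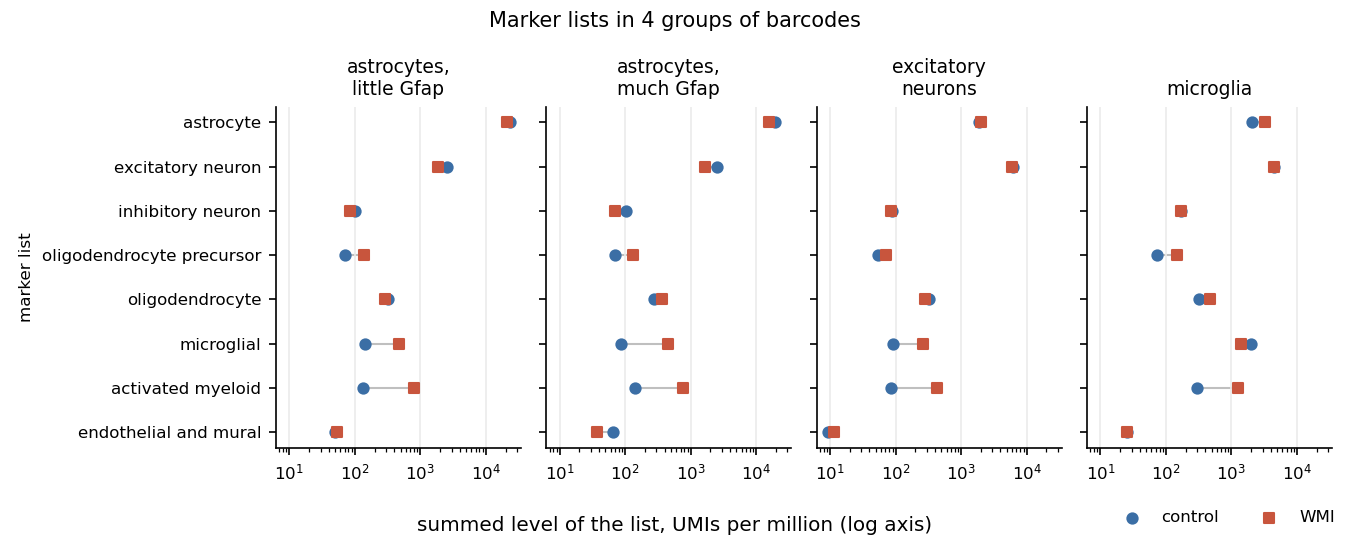
Summed level of 8 marker lists (rows, CPM, log axis) in astrocytes with little Gfap, astrocytes with much Gfap, excitatory neurons and microglia, with control as blue circles and WMI as red squares. The astrocyte list lies at 23227 and 20877 CPM in astrocytes with little Gfap, and the 2 myeloid lists lie further right in WMI than in control in every panel but for the microglial list in microglia.

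The 15 genes that stood furthest above all other barcodes in both libraries, leaving out the genes of the rule, described the cells further, as values with no test. Pdzph1 stood 5.17 and 5.14 above the others on the log2 scale in control and WMI, and Grin2c, an NMDA receptor subunit, 4.91 and 5.13. Gli2 and Gli3, transcription factors that answer to Sonic hedgehog, stood 5.20 and 4.33, and 4.92 and 4.46, above the others. Slco1c1 and Dio2, which import and activate thyroid hormone, stood 4.44 and 4.82, and 4.37 and 4.70, above them. Fgfr3, a receptor for fibroblast growth factors, stood 4.25 and 4.24 above them, and Folh1, an enzyme that frees glutamate from a dipeptide, 4.21 and 4.38. Cyp4f15, Celrr, C030005K06Rik, 4932438H23Rik, Gm41492, Gm13266 and 2900052N01Rik made up the rest.

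The astrocytes with little Gfap were not uniform. Leiden clustering of each library alone gave 5 sub-groups in each, described by the genes that led them against the other members. In the control, 167 cells were led by Bcas1, Kcna1 and mitochondrial genes, and 165 cells by Bmp7, Gm49164, Cdh19 and Aldh1a1, of whose 569 UMIs they held 390. A sub-group of 37 control cells was led by Htr4, Grik4, Srrm4, Tshz2 and Rbfox3, genes of neurons, and its astrocyte list stood at 13252 CPM against 26514 CPM in the group led by Bmp7. The last 2 control sub-groups held 10 cells led by Gm29260 and 7 cells led by Tgfbr1 and Elmo1, with the microglial list at 1308 CPM in the latter.

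In the WMI library 95 cells were led by Dio2, Fam213a, Cpne2, Etv4 and Eogt, with the astrocyte list at 26655 CPM. A sub-group of 59 cells was led by Bnc2, Reln, the gene of an extracellular glycoprotein that guides layering, and Slc38a2, with the astrocyte list at 13832 CPM. WMI astrocytes with little Gfap had 85 Bnc2 UMIs, which lay in only 10 of the 242 cells. Of these UMIs, 76 lay in the sub-group of 59 cells, and the control astrocytes had 4 Bnc2 UMIs in 4 cells. A sub-group of 51 cells was led by the noncoding RNAs Gm29683 and Gm12239 and also held Tnc and Hes5 high. The remaining cells formed a group of 24 led by Gm29260, Slc38a1 and Igfbp5 and a group of 13 led by Dock2 and Inpp5d, genes of blood-borne and microglial cells, with the microglial list at 1663 CPM. None of the sub-groups was given a cell type name.

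Counts also varied between cells beyond sampling. For 2507 genes with at least 100 UMIs in each library, the variance over cells divided by that expected from depth alone had a median of 1.22 in the control and 1.24 in the WMI library, where 1 means sampling only. It was 6.91 and 8.88 for Slc1a2 and 7.52 and 5.72 for Unc13c, a gene of vesicle release, so that for such genes the counting intervals below are too narrow even for the spread between cells.

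For the comparison of WMI with control, 5495 genes had at least 100 UMIs over the astrocytes with little Gfap of both libraries. Of these, 75 (1.36%) were 2-fold or more higher in the WMI library and 47 (0.855%) 2-fold or more lower. The median log2 ratio was 0.06, and 5% of genes lay below -0.55 and 5% above 0.64. Over the same genes, 73 were 2-fold or more higher and 26 lower in excitatory neurons. When only the 75 WMI astrocytes without an Xist UMI were used, 4299 genes had at least 100 UMIs, and 25 of them were 2-fold or more higher and 72 lower. These counts are descriptions of 2 libraries, and 2-fold is a size and not a test.

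**Figure D2:**
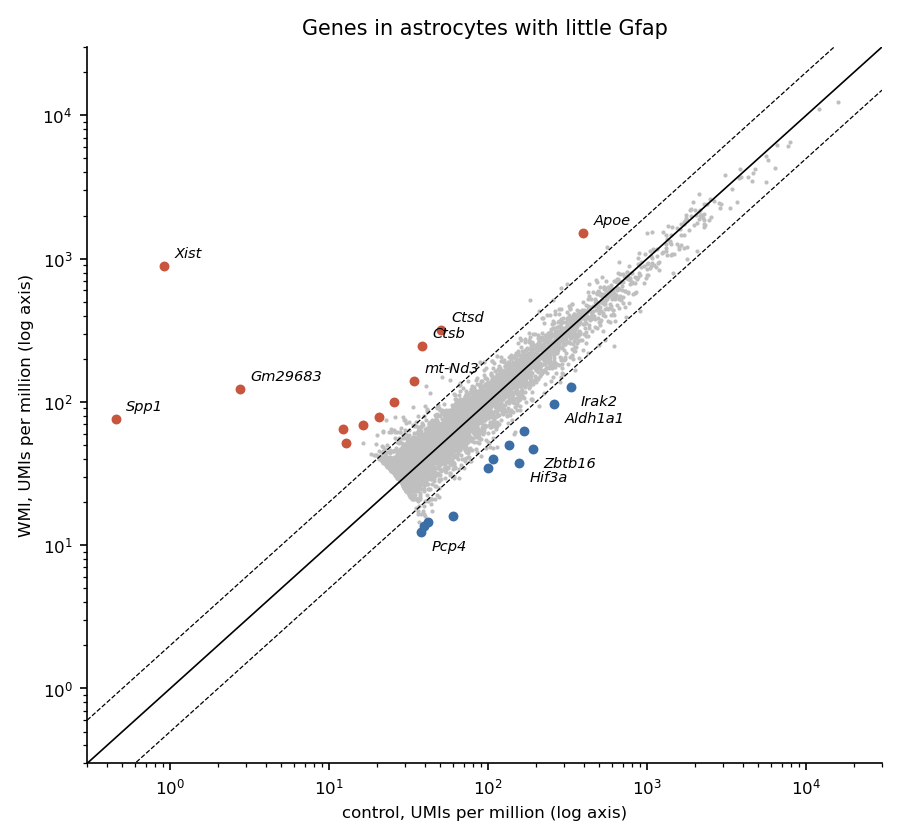
Level of each of 5495 genes in astrocytes with little Gfap, in CPM on log axes, control (x axis) against WMI (y axis). The solid line marks equal levels and the dashed lines 2-fold. The 12 genes with the highest ratios are red and the 12 with the lowest are blue, and some are named. Most genes lie between the dashed lines, Xist and Spp1 lie at the far left, and Hif3a and Zbtb16 lie below the lower dashed line.

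The lowest ratios belonged to Hif3a and Zbtb16. Hif3a (chromosome 7, 17031507 to 17062427, minus strand, GRCm38), a member of the family of hypoxia-inducible factors, had 342 UMIs in 202 control astrocytes with little Gfap and 52 UMIs in 44 WMI ones. Its level was 155.7 CPM (139.6 to 173.1) in the control and 37.5 CPM (28.0 to 49.2) in WMI, a log2 ratio of -2.05 (-2.50 to -1.63). The counting intervals of the levels did not overlap. After thinning to 1000 UMIs it was found in 15.8% of control and 2.48% of WMI cells (unthinned 52.3% and 18.2%), against 0.939% and 0.699% of excitatory neurons. In astrocytes with much Gfap the log2 ratio was -2.47 (-3.50 to -1.41), from 15 control and 21 WMI UMIs, and in excitatory neurons it was -0.25 (-0.61 to 0.11).

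Zbtb16 (chromosome 9, 48654297 to 48836222, minus strand), a zinc-finger transcription factor, stood at 192.1 CPM (174.2 to 211.4) in control and 46.9 CPM (36.2 to 59.8) in WMI astrocytes with little Gfap, a log2 ratio of -2.03 (-2.43 to -1.65). It was -1.59 (-2.27 to -0.88) in astrocytes with much Gfap and -0.20 (-0.27 to -0.12) in excitatory neurons, whose own levels were 140.1 and 122.3 CPM. In the control the astrocytes thus lay above the neurons, and in the WMI library below them. After thinning, 17.4% and 5.37% of the astrocytes held a UMI (unthinned 56.7% and 21.9%), against 11.4% and 9.47% of the neurons.

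Aldh1a1, which makes retinoic acid, stood at 259.1 and 96.7 CPM, a log2 ratio of -1.42 (-1.70 to -1.15), and was found in 50.3% of control and 26.9% of WMI cells without thinning. It was -0.57 (-0.95 to -0.16) in astrocytes with much Gfap and -0.86 (-1.27 to -0.46) in excitatory neurons, where its level was 6.81 and 3.75 CPM. C730002L08Rik lies antisense within the same stretch, and its reads cannot be told apart from those of Aldh1a1 if counting ignored strand. Acot11, a thioesterase of fatty acyl-CoA, stood at 168.5 and 62.8 CPM (log2 -1.42, -1.78 to -1.08). Pla2g3, a secreted phospholipase, stood at 39.6 and 13.7 CPM (log2 -1.53, -2.33 to -0.80). Both also lay over 2-fold lower in astrocytes with much Gfap (-1.57 and -2.70), and their ratios in excitatory neurons were -0.14 and -0.08.

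Irak2, a kinase of interleukin-1 and Toll-like receptor signalling, stood at 330.1 and 127.1 CPM, a log2 ratio of -1.38 (-1.62 to -1.14). Il15ra, a receptor chain for interleukin 15, stood at 41.9 and 14.4 CPM (log2 -1.54, -2.31 to -0.83). Lrrc8c, a subunit of the volume-regulated anion channel, stood at 135.7 and 49.8 CPM (log2 -1.45, -1.84 to -1.06), and Pcp4, which binds calmodulin, at 37.8 and 12.3 CPM (log2 -1.62, -2.47 to -0.86). Smim3 and Dzip1l had log2 ratios of -1.52 and -1.43. The noncoding 9630028H03Rik, annotated antisense to Plcb1, had -1.92 (-2.64 to -1.26), and whether counting used strand is not stated in the sources used here. In excitatory neurons 9630028H03Rik was lower too, at -1.21 (-1.35 to -1.07), as was Pcp4, at -0.95 (-1.16 to -0.75).

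**Figure D3:**
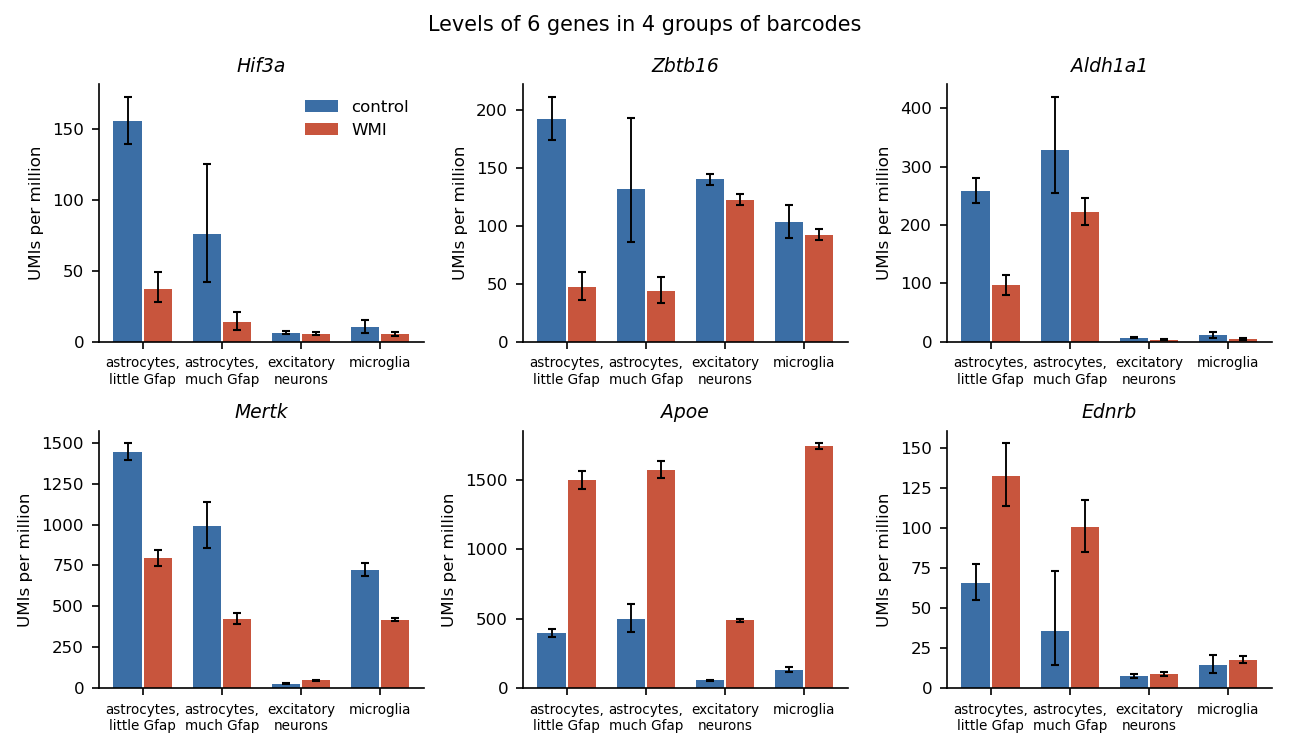
Level of Hif3a, Zbtb16, Aldh1a1, Mertk, Apoe and Ednrb (CPM) in 4 groups of barcodes, control in blue and WMI in red, with 95% Poisson intervals that cover counting error only. Hif3a and Zbtb16 are lower in WMI than in control in both groups of astrocytes, whereas Apoe is higher in WMI in all 4 groups.

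The highest ratios were mostly those of genes that were also higher in other barcodes of the WMI library. Xist had 2 UMIs in the control and 1227 in the WMI library, and in excitatory neurons 2 and 13864. Spp1, the gene of the secreted protein osteopontin, had 1 UMI in the control and 105 UMIs in 81 WMI cells (log2 ratio 7.38, 4.87 to 12.70), and its log2 ratio in excitatory neurons was 8.79 (6.94 to 11.84). Ctsb and Ctsd, lysosomal proteases, had log2 ratios of 2.68 (2.33 to 3.04) and 2.65 (2.35 to 2.96) in astrocytes with little Gfap and 1.79 and 2.74 in excitatory neurons. C1qa, C1qb and C1qc, which form the first complement component, had 1.93, 2.07 and 2.39 in these astrocytes and 2.36, 2.19 and 2.03 in the neurons. Without the astrocytes that held 3 or more microglial markers, C1qa and C1qb had 1.63 and 1.68. Grn, the gene of progranulin, had 1.97 and 1.65, and mt-Nd3, a subunit of respiratory complex I, 2.03 and 2.48.

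Apoe (chromosome 7, 19696109 to 19699188, minus strand), which carries lipids between cells, had 872 UMIs in control and 2076 UMIs in WMI astrocytes with little Gfap. Its level was 397.0 CPM (371.1 to 424.3) and 1499 CPM (1435 to 1565), which is 3.78-fold higher (log2 ratio 1.92, 1.802 to 2.03). UMIs of Apoe were found in 320 of the 386 control cells and in all 242 WMI cells, and in 32.4% and 76.4% after thinning. In excitatory neurons the level was 57.7 and 489.8 CPM (log2 3.09, 3.00 to 3.17), in microglia 134.5 and 1742 CPM, and in astrocytes with much Gfap 496.8 and 1572 CPM. Its ratio in astrocytes with little Gfap was thus below that in neurons and microglia.

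Asap3, a GTPase-activating protein for Arf proteins, had 28 and 72 UMIs (log2 2.03, 1.38 to 2.71), with 0.28 (-0.16 to 0.71) in excitatory neurons, 1.84 (0.90 to 2.99) in astrocytes with much Gfap and 1.24 over all other barcodes. In microglia, a group that overlaps with excitatory neurons, Asap3 was lower, at -1.22 (-1.58 to -0.85). The list of microglial genes was lower in that group as well, at 1966 and 1425 CPM. Gm29683, a long intergenic noncoding RNA (chromosome 7, 70178868 to 70337852, minus strand), had 6 UMIs in 2 control cells and 170 UMIs in 51 WMI cells (log2 5.49, 4.34 to 6.96). Of the 6 control UMIs, 5 lay in 1 cell, and the log2 ratio was 7.89 when the deepest astrocytes were left out. Gm29683 was higher in excitatory neurons too, at 1.05 and 7.16 CPM (log2 2.77, 2.14 to 3.46). Of its 170 WMI UMIs, 129 lay in the sub-group of 51 cells that it led.

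**Figure D4:**
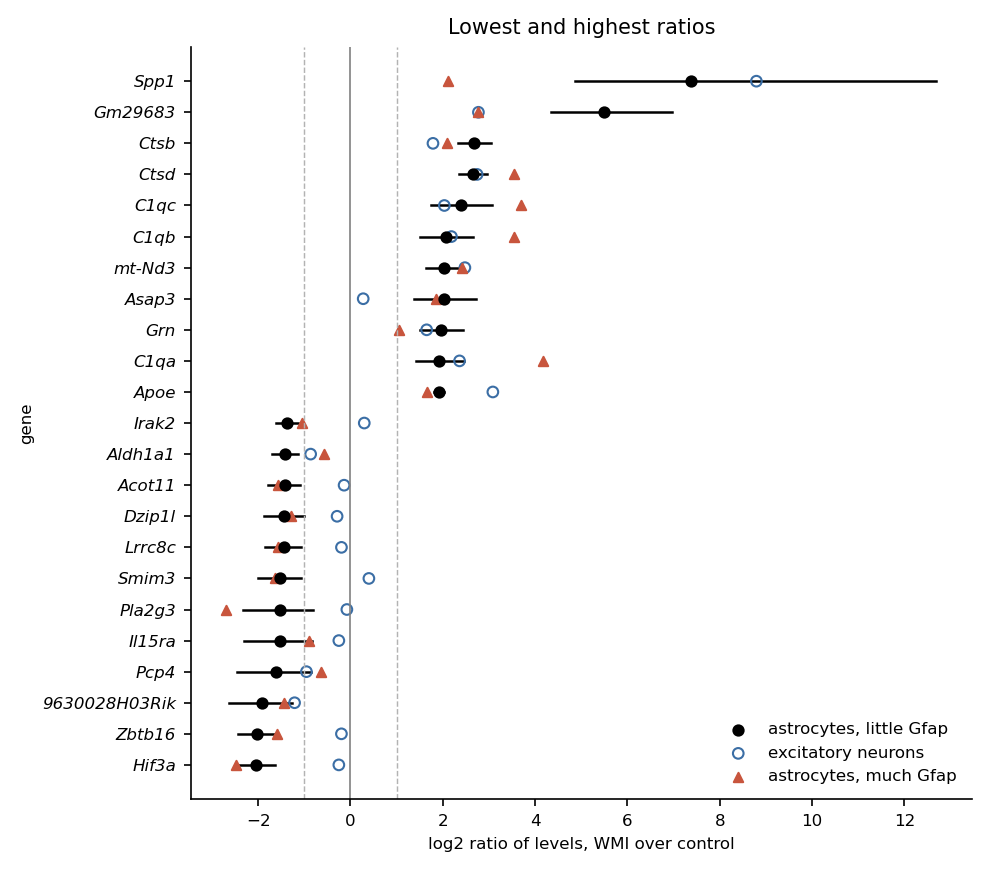
Log2 ratio of WMI over control (x axis) for the 12 lowest and 11 of the 12 highest genes (rows, Xist left out), in astrocytes with little Gfap (black, with 95% counting intervals), excitatory neurons (blue circles) and astrocytes with much Gfap (red triangles). Dashed lines mark 2-fold. For 9 of the 12 lowest genes the blue circles lie within 2-fold and near 0 at between -0.29 and 0.40, and for most of the highest genes all 3 symbols lie to the right.

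Handling of glutamate and GABA was covered by 13 genes, of which 10 had at least 100 UMIs. 1 of them was 2-fold or more higher and 0 lower, beside 1.36% and 0.855% of all genes, with a median log2 ratio of -0.05 beside 0.06. The gene that was higher was Slc7a11, which exports glutamate in exchange for cystine. It stood at 183.0 CPM in the control and 513.3 CPM in WMI (log2 1.49, 1.31 to 1.67), with 0.49 in excitatory neurons, 1.03 in astrocytes with much Gfap, 1.73 (0.93 to 2.65) in microglia and 1.45 over all other barcodes. After thinning it was found in 14.8% and 31.0% of astrocytes with little Gfap (unthinned 48.7% and 71.9%) and in 0.791% and 1.08% of neurons. Slc1a2 stood at 7736 and 6130 CPM (log2 -0.34, -0.37 to -0.30) and Slc1a3 at 2124 and 2125 CPM (log2 0.00, -0.07 to 0.07). Glul, the glutamine synthetase, had -0.11 (-0.30 to 0.08), and the GABA transporter Slc6a11 had -0.25 (-0.46 to -0.03).

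Of 13 genes for potassium and water, 11 had at least 100 UMIs. Of these, 0 were 2-fold higher or lower, beside 1.36% and 0.855% of all genes (median 0.06). Slc4a4, a bicarbonate transporter, had a log2 ratio of 0.04, and Kcnj10, the inward rectifier that takes up potassium, -0.04 (-0.41 to 0.31). Mlc1, which regulates astrocyte volume, was the highest at 0.67 (0.29 to 1.04). Aqp4, the water channel, and Gja1, the gap junction protein connexin 43, belong to the rule and are given as a description. Aqp4 stood at 106.1 and 192.0 CPM, and Gja1 at 135.2 and 161.0 CPM.

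Junction and adhesion genes had the lowest median of the lists with at least 9 genes above the limit, at -0.36. Of the 9 genes, 0 were 2-fold lower, beside 0.855% of all genes. Gjb6, connexin 30, stood at 61.5 and 35.4 CPM (log2 -0.80, -1.30 to -0.32), with -1.09 in excitatory neurons. Lsamp, an adhesion protein of the limbic system, had the most UMIs of the list and -0.36 (-0.39 to -0.33), with 0.64 in the neurons. Cadm1 had -0.41 (-0.49 to -0.32) and 0.49 in the neurons. Tjp1, which anchors tight junctions, had -0.55 (-0.67 to -0.43).

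The receptor list held 24 genes, of which 19 had at least 100 UMIs, of which 1 was 2-fold or more higher and 0 lower, beside 1.36% and 0.855% of all genes, with a median of -0.12. The higher gene was Ednrb (chromosome 14, 103814625 to 103844402, minus strand), the endothelin receptor on which the study centred. It had 144 UMIs in 104 control cells and 183 UMIs in 114 WMI cells, which is 65.6 CPM (55.3 to 77.2) and 132.1 CPM (113.7 to 152.7), a log2 ratio of 1.01 (0.69 to 1.34), which was 0.70 when no neuronal UMIs were allowed. In astrocytes with much Gfap it was 1.501 (0.42 to 2.84), from 7 control and 154 WMI UMIs, and in excitatory neurons 0.21 (-0.10 to 0.51), with levels of 7.73 and 8.91 CPM. After thinning, the share of cells with a UMI was 6.99% (4.66 to 10.0) and 11.6% (7.83 to 16.3), whose intervals overlap, beside 1.14% and 1.59% of excitatory neurons and 26.9% and 47.1% of astrocytes with little Gfap without thinning.

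The other endothelin genes had fewer than 100 UMIs in these cells, apart from Ece1, which cleaves endothelin precursors and stood at 51.9 and 45.5 CPM (log2 -0.19, -0.66 to 0.27). Ednra, the other endothelin receptor, had 28 and 36 UMIs (log2 1.03, 0.27 to 1.79), with 0.93 (0.43 to 1.45) in excitatory neurons, and Ece2 had 10 and 15 UMIs. The ligand Edn1 had 2 UMIs in the control and 0 in the WMI library, and Edn2 and Edn3 had 0 in both. Among further receptors, Grin2c had -0.70 (-1.01 to -0.38), with -2.07 (-3.16 to -1.10) in excitatory neurons and -1.04 (-1.95 to -0.04) in astrocytes with much Gfap. Fgfr2 had -0.57 (-0.72 to -0.43) and Fgfr3 -0.47 (-0.72 to -0.22), the latter with -1.05 in the neurons. Egfr had 0.40 (0.23 to 0.58) and Fgfr1 0.31 (0.06 to 0.56), the latter with 0.78 in the neurons. Grm3 and Grm5, metabotropic glutamate receptors, had 0.08 and -0.07.

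Lipid and cholesterol genes had a median of 0.01 over 19 genes with at least 100 UMIs, of which 3 were 2-fold or more higher and 0 lower, beside 1.36% and 0.855% of all genes. The higher genes were Apoe, Abca1 and Fabp7. Abca1, which loads cholesterol and phospholipid onto apolipoproteins, stood at 208.1 and 433.9 CPM (log2 1.06, 0.88 to 1.24), with 2.68 in excitatory neurons. Its log2 ratio in the astrocytes was 0.89 with a rule of other limits applied after thinning. Fabp7, the brain fatty acid binding protein, stood at 25.95 and 61.4 CPM (log2 1.24, 0.74 to 1.75), with 0.39 in the neurons. Enzymes of cholesterol synthesis lay near 0, with Cyp51 at 0.01 (-0.47 to 0.47) and Msmo1 at 0.02 (-0.22 to 0.26).

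Of 18 genes for glucose and glycogen, 11 had at least 100 UMIs. Of these, 0 were 2-fold higher or lower, beside 1.36% and 0.855% of all genes (median 0.01). Pygb, the brain glycogen phosphorylase, had a log2 ratio of 0.63 (0.42 to 0.83) and Phkg1, a subunit of the kinase that activates it, 0.44 (0.26 to 0.62), with -0.15 and 0.00 in excitatory neurons. Pygm, the muscle form of the phosphorylase, was below the limit of 100 UMIs and is named because of its values. It had 59 UMIs in the control and 6 in the WMI library (log2 -2.63, -4.14 to -1.43), with -1.53 (-2.52 to -0.64) in excitatory neurons.

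Transcription factors had a median of 0.22 over 26 genes, of which 3 were 2-fold or more higher and 0 lower, beside 1.36% and 0.855% of all genes. Sox9, which specifies astrocytes, had 70 and 100 UMIs (log2 1.18, 0.72 to 1.64), Sox2, a factor of neural progenitors and glia, 66 and 88 (1.08, 0.60 to 1.56), and Id3, an inhibitor of basic helix-loop-helix factors, 67 and 99 (1.23, 0.77 to 1.70). Their log2 ratios in excitatory neurons were 0.36, -0.07 and 0.17, and Id3 had 0.66 in the astrocytes when no neuronal UMIs were allowed. The counts were larger for Nfia, at 0.15 (0.07 to 0.22), Zbtb20, at 0.40 (0.34 to 0.47), and Npas3, at 0.31 (0.25 to 0.36), with 1.47 for Zbtb20 and 0.89 for Npas3 in the neurons. Rora, a nuclear receptor, was lower, at -0.40 (-0.45 to -0.35).

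Genes that differ between cortical layers or brain regions were 14, of which 10 had at least 100 UMIs, of which 1 (Id3) was 2-fold or more higher and 0 lower, beside 1.36% and 0.855% of all genes, with a median of -0.00. Chrdl1 and Eogt had log2 ratios of -0.83 (-1.26 to -0.41) and -0.69 (-1.04 to -0.36). The cortical factors Lhx2 and Emx2 had 0.21 and 0.11, and both intervals included 0.

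Among 22 synapse and matrix genes with at least 100 UMIs, 0 were 2-fold higher or lower, beside 1.36% and 0.855% of all genes. Their median was 0.01. Mertk, a receptor with which astrocytes and microglia engulf synapses and debris, stood at 1445 CPM (1395 to 1496) in control and 794 CPM (748 to 842) in WMI (log2 -0.86, -0.96 to -0.76), with 0.84 in excitatory neurons. It was -1.22 (-1.45 to -0.98) in astrocytes with much Gfap. Microglia, whose group overlaps with excitatory neurons, held 724.9 and 418.8 CPM. Megf10, another engulfment receptor, had -0.28 (-0.53 to -0.03). Of the matrix genes, Vcan had 0.87 (0.53 to 1.22), Tnc 0.79 (0.61 to 0.97), Ncan 0.64 (0.34 to 0.93) and Tnr 0.55 (0.39 to 0.72), while Bcan had 0.20 and Cspg5 0.03. Nlgn1, an adhesion protein of synapses, had -0.05, and Sparcl1, which promotes synapses, had -0.01.

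**Figure D5:**
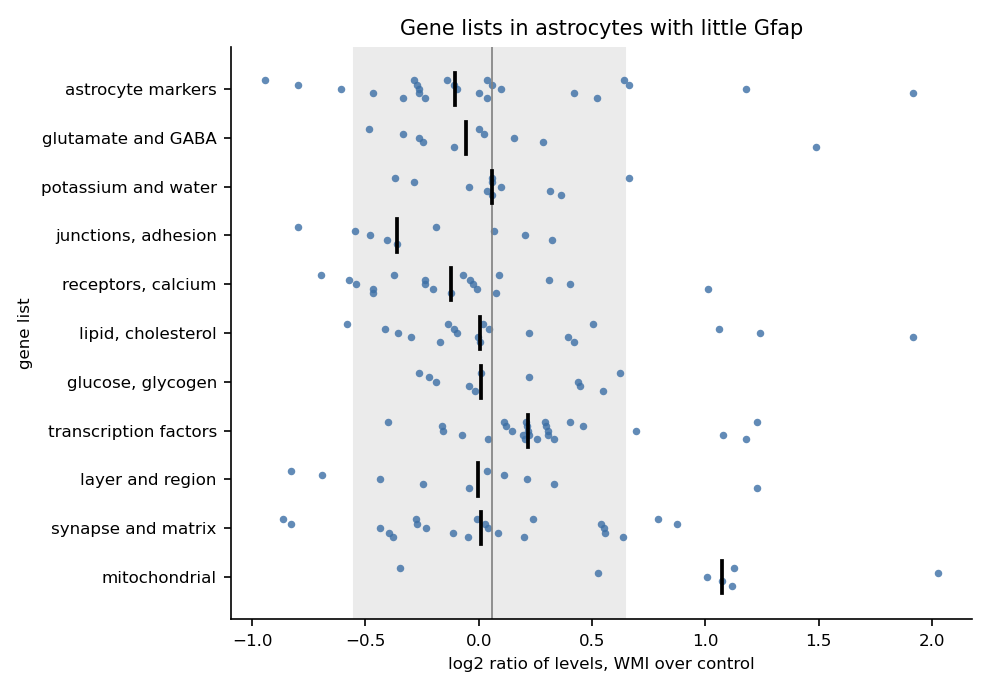
Log2 ratio of WMI over control in astrocytes with little Gfap (x axis) for each gene with at least 100 UMIs of 11 gene lists (rows), with the list median as a black bar. The grey band covers the central 90% of all 5495 genes and the grey line their median of 0.06. The junction median lies at -0.36, the transcription factor median at 0.22 and the mitochondrial median at 1.08, and the other medians lie between -0.12 and 0.06.

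Genes of reactive astrocytes were at low levels. Of 12 genes shared by reactive astrocytes of several models, 0 had 100 UMIs. Their sum was 52 UMIs in the control and 126 in WMI, which is 23.7 and 91.0 CPM, against 25.3 and 536.8 CPM in astrocytes with much Gfap. Lcn2, a secreted carrier of siderophores, had 0 and 1 UMI, Serpina3n, a protease inhibitor, 1 and 10, Vim, an intermediate filament, 5 and 11, and Cd44, a receptor for hyaluronan, 23 and 42. The genes named A1 after inflammation stood at 51.4 and 95.3 CPM in sum, with Ggta1, a galactosyltransferase, at 7 and 51 UMIs and C3, the third complement component, at 0 and 2. Of the A1 genes only Fkbp5 had at least 100 UMIs, and it was over 2-fold lower, with 87 and 23 UMIs (log2 -1.25, -1.99 to -0.58), beside -0.61 (-0.78 to -0.44) in excitatory neurons and 0.10 (-1.61 to 2.47) in astrocytes with much Gfap. Its ratio was -2.52 when only WMI astrocytes without an Xist UMI were used and -0.79 without barcodes that carry markers of other cell types. The genes named A2 after ischaemia stood at 19.6 and 29.6 CPM, with 43 and 41 UMIs.

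Genes of immature astrocytes and dividing cells numbered 17, of which 5 had at least 100 UMIs, 1 of them 2-fold or more higher (Fabp7) and 0 lower, beside 1.36% and 0.855% of all genes, with a median of 0.79. Besides Tnc and Fabp7, Sox11 had 0.99 (0.54 to 1.45) and Dbi 0.62 (0.19 to 1.05), with 0.56 and 0.65 in excitatory neurons. Mki67, a gene of dividing cells, had 1 and 3 UMIs, Top2a 4 and 4, and Aurkb 0 in both. Of 14 immediate early genes, 0 had 100 UMIs, and their sum was 81.0 CPM in the control and 104.7 CPM in WMI.

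The hypoxia and metal list had 6 of 17 genes with at least 100 UMIs, of which 1 (Hif3a) was 2-fold or more lower and 0 higher, beside 0.855% and 1.36% of all genes (median 0.18). Hif1a had a log2 ratio of 0.70 (0.27 to 1.12), whereas Vegfa, a growth factor for vessels, stood at 123.8 and 128.5 CPM (0.05, -0.23 to 0.33). Metallothioneins Mt1 and Mt3, which bind zinc, had 0.16 and 0.21, both with intervals that included 0. Of 7 mitochondrial genes with at least 100 UMIs, 5 were 2-fold or more higher and 0 lower, beside 1.36% and 0.855% of all genes, with a median of 1.08. In excitatory neurons the ratio was larger for each of these 7 genes, for example 2.05 against 1.12 for mt-Cytb. Without the sub-groups poor in astrocyte genes or rich in microglial genes, mt-Nd1, mt-Nd2, mt-Nd4 and mt-Cytb stood at 0.53, 0.59, 0.68 and 0.65, and mt-Nd3 at 1.29 instead of 2.03.

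Astrocytes with much Gfap differ from the others by the Gfap count that chose them, so that their values are a description, with no test. Within the WMI library, the 12 genes that stood furthest below in astrocytes with little Gfap included A2m, a protease inhibitor, at 16.6 against 359.4 CPM (log2 -4.44), C530044C16Rik with 18 against 206 UMIs (-3.37), Cp, the copper carrier ceruloplasmin, at 10.1 against 88.7 CPM (-3.13), and Col4a6, a collagen of basement membranes, at 11.6 against 90.0 CPM (-2.96). C4b, a complement gene, stood at 23.8 against 130.4 CPM (-2.45), and Myoc at 9.39 against 63.9 CPM (-2.77). Among the 12 genes that stood furthest above were Bnc2 at 61.4 against 17.0 CPM (1.86), Eogt at 74.4 against 22.2 CPM (1.75), Sycp2, a protein of meiotic chromosomes, at 56.3 against 20.2 CPM (1.48), Vegfa at 128.5 against 47.6 CPM (1.43), Grin2c at 85.2 against 32.0 CPM (1.41) and Etv4, a factor that acts after fibroblast growth factor signals, at 145.8 against 58.7 CPM (1.31). In the control library, with 29 cells with much Gfap, Eogt stood 1.98 above (0.84 to 3.44) and Grin2c 1.07 above (0.27 to 1.99), whereas Vegfa had -0.14 (-0.72 to 0.48) and Bnc2 stood below, at -3.48 (-5.90 to -1.05), from 4 UMIs in each group. A2m had 13 UMIs in control astrocytes with little Gfap and 0 in those with much, Cp had 5 and 0, and C530044C16Rik had -0.16 (-2.97 to 5.28). Col4a6, C4b and Myoc stood below in the control too, at -2.10, -3.16 and -3.63.

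Some genes had a ratio in astrocytes with little Gfap that was unlike that of all other barcodes, although the mixture of those other barcodes differed between the libraries, and the difference was not tested. Below the others by most, apart from Xist, were Irak2, whose log2 ratio differed from theirs by -2.28, Prkcd, by -2.22, Abca1, by -2.15, Mertk, by -2.04, and Selenop, by -2.03. Of these, Selenop, a carrier of selenium, was higher in WMI in both, with 0.82 in astrocytes with little Gfap and 2.84 in excitatory neurons. Pnpla7, Lonrf3, Eva1a and Eif2ak2 completed the 10 lowest differences. In astrocytes with much Gfap the log2 ratios were on the same side of 0 for Irak2, at -1.06 (-1.56 to -0.53), Eva1a, at -1.09 (-1.75 to -0.39), Prkcd, at -0.71 (-1.83 to 0.60), Lonrf3, at -0.58 (-1.37 to 0.29), and Abca1, at 1.54 (1.05 to 2.09). Pnpla7 had 0.69 (0.01 to 1.45) there, against -0.01 (-0.29 to 0.27) in astrocytes with little Gfap. Above the others by most were Gm29683, 3.10 higher, Ddr1, a collagen receptor, 1.15 higher, Galnt16, which starts O-linked sugar chains, 1.14 higher, and Slc44a2, a choline transporter, 1.05 higher. Galnt16 stood at 57.8 and 142.9 CPM in the astrocytes (log2 1.31, 0.98 to 1.64), with 0.09 (-0.02 to 0.20) in excitatory neurons, and Ddr1 had 1.37 (0.80 to 1.95) with -0.02 (-0.21 to 0.17). In astrocytes with much Gfap, Gm29683 had 2.77 (0.88 to 5.83), Galnt16 0.61 (-0.09 to 1.39), Ddr1 0.94 (0.02 to 2.03) and Slc44a2 2.66 (0.11 to 7.99), the last from 1 control and 49 WMI UMIs. Reln, Slc13a5, Rpgrip1l, Trim37, Mok and Atp6v1e1 had differences between 0.90 and 1.01. In astrocytes with much Gfap, Reln had -0.20 (-1.01 to 0.73), Slc13a5 -0.12 (-1.36 to 1.41) and Rpgrip1l -0.64 (-1.63 to 0.51). Trim37, Mok and Atp6v1e1 had 0.15, 0.64 and 0.35 there, also with intervals that included 0. Under other settings of the rule the log2 ratio of Reln in the astrocytes turned from 0.99 to -0.55, with Gfap at 0 UMIs, that of Slc13a5 went from 0.48 to 0.03, with no neuronal UMIs, and that of Rpgrip1l from 0.49 to 0.08, with no neuronal limit.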

How the data were processed

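UMI counts per gene and barcode were deposited by the authors as 1 matrix per library, made with Cell Ranger 6.1.1 (per the file headers) and not normalized. The submitters' processing notes name Seurat and mm9, whereas the 55450 gene identifiers all occur in GENCODE M21 (GRCm38), the source of the coordinates. The libraries held 10288 control and 8354 WMI barcodes with 66470806 and 60568639 UMIs. Kept barcodes had at least 1000 UMIs, 500 genes and at most 10% mitochondrial UMIs, which removed 748 and 241. Doublets were not removed, and a prediction from simulated pairs (2 per barcode, 2000 genes, 30 components, 30 neighbours, 0.8% per 1000 barcodes) served as an alternative. UMIs were summed over the chosen cells of a library, and a gene was compared by ratio when its UMIs in the 2 libraries came to 100 or more. With 1 library per condition no test was run. Shares of cells with a UMI were taken after every cell was thinned to 1000 UMIs, and unthinned shares are named as such. Sub-groups came from 1000 variable genes, 20 components, 15 neighbours and Leiden resolution 0.6 (leidenalg 0.10.2). Microglia were barcodes with at least 4 of 8 microglial markers and at most 2 of the 8 astrocyte genes, and astrocytes with much Gfap had at least 2 Gfap UMIs.

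The text names the 12 highest and 12 lowest ratios, the 10 highest and 10 lowest differences from other barcodes, the 15 leading genes, the endothelin genes, and, of 30 gene lists, the genes past 2-fold or with the most UMIs, with further list members chosen after their values were seen. Members, lists and rules were chosen with earlier results of these data known. Alternatives changed the rule, the filters, the scaling, the floor and the fold, and 2 were added after seeing the data. A few genes are not reported here. The intervals of the ratios and of the difference in shares were tested on simulated counts, drawn without spread between cells beyond sampling. The thinning was checked on control barcodes, for the depth reached only. The tools were scipy 1.17.1, scikit-learn 1.9.0, pandas 2.3.3, numpy 2.4.6 and matplotlib 3.10.9 under Python 3.11.15.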

Additional observations from a re-analysis of the deposited data

Results flagged for a closer look

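For 6 of the genes named for their ratio or their difference, the log2 ratio of WMI over control lay on opposite sides of 0 in astrocytes with little Gfap and in excitatory neurons, with both counting intervals free of 0. They were sought only among the 12 highest and 12 lowest ratios and the 10 highest and 10 lowest differences from other barcodes. Those other barcodes include the neurons, so that this choice favours opposite sides. The share among all 5495 genes was not counted. The difference was not tested, since each condition had 1 library. Mertk had -0.86 (-0.96 to -0.76) in the astrocytes and 0.84 (0.70 to 0.99) in the neurons, a difference of -1.71, and Irak2 -1.38 and 0.30 (0.06 to 0.54), a difference of -1.68. Eva1a had -0.84 (-1.24 to -0.45) and 0.72 (0.07 to 1.38), a difference of -1.56. Over the alternatives Eva1a ran from -1.81, with WMI astrocytes without an Xist UMI, to -0.32, with a rule of other limits applied after thinning. In the other direction, Slc13a5, a citrate transporter, had 0.48 (0.06 to 0.91) and -0.83 (-1.19 to -0.47), a difference of 1.31. In astrocytes with much Gfap it had -0.12 (-1.36 to 1.41). With no neuronal UMIs allowed, the ratio of Slc13a5 in astrocytes with little Gfap was 0.03. Atp6v1e1, a subunit of the proton pump of lysosomes, had 0.65 and -0.28, a difference of 0.93, and Trim37, a ubiquitin ligase, 0.64 and -0.25, a difference of 0.89. When only WMI astrocytes without an Xist UMI were used, Atp6v1e1 had 0.14 and Trim37 0.28. The levels in neurons were 27.6 and 49.4 CPM for Mertk, 11.8 and 14.6 CPM for Irak2 and 1.53 and 2.51 CPM for Eva1a, against 1445 and 794, 330.1 and 127.1, and 97.0 and 54.1 CPM in the astrocytes.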

How the results depend on the processing

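The difference in the share of barcodes, -1.06 points, stayed negative under all 11 alternatives. It was -0.49 with Gfap up to 3 UMIs, -0.36 with no neuronal UMIs, -0.25 with the rule applied after thinning and -0.45 without barcodes that carry markers of other cell types, and the interval included 0 under each of these. The 75 genes 2-fold or more higher and 47 lower, of 5495 genes, became 29 and 38 of 2642 genes with no neuronal UMIs. When only the 75 WMI cells without an Xist UMI were used, the counts were 25 and 72 of 4299 genes. They became 1036 and 704 with a floor of 10 UMIs, 211 and 101 with 50, and 25 and 24 with 200. At 1.5-fold they were 382 and 237 and at 3-fold 16 and 4. Centring on the median gave 60 and 60. The sub-groups were 2 and 3 in control and WMI at resolution 0.3 and 8 and 6 at resolution 1.

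Over 18 alternatives, 2 of them added after seeing the data (sub-groups poor in astrocyte genes or rich in microglial genes left out, and members with 3 or more microglial markers left out), 3973 log2 ratios of named and listed genes were recomputed. None that was 2-fold or more reversed, 3719 stayed within their counting interval and 254 left it. Abca1, Ddr1, Slc44a2, Mok, Sox2, Id3, Ednra, Ednrb, Dzip1l, Fkbp5, Tsc22d3, mt-Nd1, mt-Nd2, mt-Nd4 and mt-Cytb came within 2-fold under at least 1 alternative. Below 2-fold, many ratios near 0 turned, and only examples are given here. Reln turned from 0.99 to as low as -0.55, Egfr from 0.40 to -0.08 and Prkcd from -0.32 to 0.08. Further examples were mt-Nd5, from -0.35 to 0.63, and Emx2, from 0.11 to -0.60. Hif3a ranged from -2.36 to -1.83, Zbtb16 from -2.33 to -1.67, Apoe from 1.85 to 2.13, Slc7a11 from 1.22 to 1.65, Mertk from -0.97 to -0.69 and Ednrb from 0.70 to 1.14. Leaving out those sub-groups took mt-Nd1 from 1.08 to 0.53 and mt-Cytb from 1.12 to 0.65, and Fkbp5 lay between -2.52 and -0.79. The doublet prediction marked 67 of 386 control and 25 of 242 WMI astrocytes with little Gfap, more than among all barcodes (8.23% and 6.68%).

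Without thinning, the difference in the share of cells with a UMI was -34.1 points instead of -13.3 for Hif3a, -34.8 instead of -12.0 for Zbtb16, 17.1 instead of 44.1 for Apoe and 20.2 instead of 4.58 (-0.23 to 9.84) for Ednrb. Depth limits the rest, since the genes of reactive astrocytes but Fkbp5 lay below 100 UMIs. No paired analysis was possible because each condition had 1 library, and leaving out a replicate was not possible for the same reason.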

Other observations

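Zbtb16, Fkbp5 and Tsc22d3 are known to respond to glucocorticoids, and such genes were looked at after the values had been seen, so that they are given as values only. Tsc22d3, also called Gilz, had 87 control and 26 WMI UMIs in astrocytes with little Gfap (log2 ratio -1.08, -1.77 to -0.43). It had -1.96 (-3.06 to -0.77) in astrocytes with much Gfap, -1.06 (-1.59 to -0.54) in excitatory neurons and -1.62 (-2.16 to -1.05) in microglia. Klf9 stood at 227.6 and 134.3 CPM (-0.76, -1.01 to -0.52), with -0.32 (-0.42 to -0.21) in the neurons, and Per1 had 70 and 29 UMIs (-0.61, -1.28 to 0.04). Fkbp5 stood at 39.6 and 16.6 CPM in the astrocytes and at 164.1 and 38.7 CPM in microglia. Hif3a, looked at in the same set, had -2.05 (-2.50 to -1.63) in the astrocytes. Other genes of this kind had intervals that included 0, with Sgk1 at 0.03 (-0.41 to 0.46), Ddit4 at 0.34 (-1.20 to 1.84), Hsd11b1 at 0.24 (-0.51 to 0.97), Pdk4 at -0.11 (-1.18 to 0.90), Mt2 at -0.15 (-0.92 to 0.59) and Errfi1 at -0.33 (-1.33 to 0.60). The receptors Nr3c1 and Nr3c2 had -0.26 (-0.52 to 0.01) and 0.26 (0.10 to 0.43).

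Unc13c, also chosen after its values were seen, had 1350 UMIs in 242 control cells and 342 UMIs in 93 WMI cells (log2 ratio -1.32, -1.49 to -1.14). In astrocytes with much Gfap Unc13c had -1.36 (-1.81 to -0.88), and in excitatory neurons 0.56 (0.46 to 0.66). Its UMIs were uneven between cells, and the 5 cells with the most held 13.9% of them in the control and 24.6% in the WMI library. Bnc2 had 4 UMIs in the control and 85 in the WMI library (log2 ratio 5.07), below the limit of 100, and the 85 UMIs lay in 10 of 242 WMI cells.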
